A study of Mus musculus with 47 samples.

Results

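The regions described here are H3K4me3 peaks of untreated NMuMG cells that were still called after 48 h of TGFβ1 and that overlapped an H3K14ac peak at 48 h but none at 0 h. Of 31657 H3K4me3 peaks called in untreated control cells, 27196 overlapped an H3K4me3 peak at 48 h (stable peaks), and 21659 of these met the rule. They made up 68.4% of all untreated H3K4me3 peaks and 79.6% of the stable ones. Of the other stable peaks, 3009 overlapped H3K14ac at both times and 2528 at neither time, and 0 had H3K14ac at 0 h only. The 2 H3K4me3 lists and the 2 H3K14ac lists of control cells were all that the members were chosen by, so H3K4me3 and H3K14ac values are given as a description, with no test. The H3K14ac lists differed in length, with 3453 peaks at 0 h and 35270 at 48 h, and the 0 h file alone of this pair has a header and rounded values. Absence of a 0 h H3K14ac peak therefore means absence from a list about 10 times shorter, and when the 48 h list was reduced to its 3453 most significant peaks, 1533 members were left.

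NMuMG is an epithelial line from mouse mammary gland, and the study asked how loss of PBRM1 and exposure to TGFβ1 bear on where chromatin proteins sit. Control cells and Pbrm1 knockout (KO) cells were left untreated (0 h) or received 5 ng/ml TGFβ1 for 24 or 48 h, and each immunoprecipitated library gave 1 peak list, 32 in all. The readouts used on the members were PHF10 (control at 0 h and 48 h with 2 libraries each, control at 24 h and KO at 0 and 48 h with 1 each), ATF3 (1 library for each genotype at 0, 24 and 48 h), and H3K18ac, H3K27ac and H3K4me1 (control, 1 library at 0 and at 48 h). BRG1 had 1 library from control cells at 0 h, and FOSL2 and FOSB had 1 library for each genotype at 0 and 48 h. H3K4me3 and H3K14ac were used in control cells only, so the KO has no value for the marks that define the members. The labels do not say whether the paired libraries came from separate cultures, nor how many KO clones were used, so p-values measure only the spread between these libraries.

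H3K4me3 is laid down at the starts of active and poised genes by SET1 and MLL complexes. H3K14ac is an acetylation written by GCN5/PCAF and by the HBO1 and MOZ enzymes, and it is read by bromodomains, among them those of PBRM1. PBRM1 and PHF10 are subunits of PBAF, the PBRM1-containing member of the SWI/SNF family of chromatin remodellers, whose ATPase can be BRG1, while ATF3 is a stress-induced bZIP transcription factor that TGFβ signalling also induces.

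Members at a gene start lie over or beside sequences such as the following, shown because they stand for the different readouts described below. Each is the 250 bases before the annotated start, 5′ to 3′ on the gene's strand, from RefSeq on GRCm38.p6, the assembly that mm10 names. Capitals mark GGGCGG, the core of the GC box bound by SP and KLF factors, and TGACGTCA, the cAMP response element that ATF and CREB proteins bind, on either strand. Overlapping matches run together. The printed bases can reach beyond the member. At Prmt1 and Zfp53 most of them, with every marked GGGCGG, lie outside it. Abl2 and Prmt1 had the highest H3K14ac fold at 48 h. Dusp16 had H3K18ac at 48 h only, Cnnm4 had the highest ATF3 fold, Rpl27a had both PHF10 and H3K18ac in control cells at 48 h but not at 0 h, and Zfp53 had PHF10 in them at 48 h but not at 0 h.
Abl2 (chr1:156558537-156558786, plus strand): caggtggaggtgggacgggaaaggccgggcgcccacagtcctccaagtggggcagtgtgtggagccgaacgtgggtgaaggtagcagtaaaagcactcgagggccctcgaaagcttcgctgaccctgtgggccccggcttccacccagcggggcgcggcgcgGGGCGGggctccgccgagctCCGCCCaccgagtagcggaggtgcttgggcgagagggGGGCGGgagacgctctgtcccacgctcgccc
Prmt1 (chr7:44986421-44986670, minus strand): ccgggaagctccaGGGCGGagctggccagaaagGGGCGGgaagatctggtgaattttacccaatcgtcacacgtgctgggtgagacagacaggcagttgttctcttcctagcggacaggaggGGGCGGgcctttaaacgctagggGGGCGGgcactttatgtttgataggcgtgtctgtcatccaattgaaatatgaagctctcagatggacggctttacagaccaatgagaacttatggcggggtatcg
Dusp16 (chr6:134792629-134792878, minus strand): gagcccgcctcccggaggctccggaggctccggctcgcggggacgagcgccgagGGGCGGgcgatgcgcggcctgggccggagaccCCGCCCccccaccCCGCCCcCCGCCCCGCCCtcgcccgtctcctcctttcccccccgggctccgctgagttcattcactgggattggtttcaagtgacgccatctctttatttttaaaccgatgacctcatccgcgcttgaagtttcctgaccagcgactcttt
Cnnm4 (chr1:36471347-36471596, plus strand): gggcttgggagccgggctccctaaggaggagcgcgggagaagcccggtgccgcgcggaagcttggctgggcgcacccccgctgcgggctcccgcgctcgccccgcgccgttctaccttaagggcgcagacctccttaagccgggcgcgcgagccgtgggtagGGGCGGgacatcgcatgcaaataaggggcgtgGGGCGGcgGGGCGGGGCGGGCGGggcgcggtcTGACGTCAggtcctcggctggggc
Rpl27a (chr7:109518945-109519194, plus strand): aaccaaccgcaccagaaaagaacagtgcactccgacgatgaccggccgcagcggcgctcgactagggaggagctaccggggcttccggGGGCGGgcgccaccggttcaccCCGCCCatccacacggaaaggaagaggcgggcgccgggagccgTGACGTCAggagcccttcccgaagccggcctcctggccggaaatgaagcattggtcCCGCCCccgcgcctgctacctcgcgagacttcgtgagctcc
Zfp53 (chr17:21488738-21488987, plus strand): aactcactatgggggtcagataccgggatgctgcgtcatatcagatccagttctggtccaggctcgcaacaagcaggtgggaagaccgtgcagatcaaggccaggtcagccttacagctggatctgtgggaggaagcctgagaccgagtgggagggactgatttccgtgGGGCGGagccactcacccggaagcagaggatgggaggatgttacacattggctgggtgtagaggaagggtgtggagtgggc

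The GC box letters were present in all 6 of these promoters, which were chosen as examples and do not give a share of members. In the full 300-base windows (250 before to 50 after the start), GGGCGG occurred in 61.9% of 10333 promoters of genes with a member within 2 kb of the start and no peak with H3K14ac at both times, against 46.2% of all 21263 promoters in the table, 73.3% of 3272 with H3K14ac at both times and 50.2% of 227 with H3K14ac at neither time. The median GC content was 60.7% in member promoters, 68.3% where H3K14ac was called at both times and 56.3% where it was called at neither. Among members, promoters with PHF10 in both 0 h control libraries held GGGCGG in 69.2% of cases and those with PHF10 at 48 h but not 0 h in 52.3%. TGACGTCA was in 3.05% of member promoters and 2.23% of all, while the AP-1 element TGACTCA was in 3.55% and 4.66%. The TATA box letters TATAAA were in 7.63% of member promoters and 12.6% of all, and the ETS core CCGGAAG in 17.0% and 11.6%. These are matches of letters on both strands in windows that also differ in base composition, and they do not show that a factor is bound.

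Members spanned most sizes and strengths of H3K4me3. Their median width was 545 bp (quartiles 378 and 815 bp) and their median untreated H3K4me3 fold enrichment was 10.5. Peaks with H3K14ac at both times were wider and stronger, with a median of 1227 bp and 66.7, and peaks with H3K14ac at neither time were narrower and weaker, with 318 bp and 5.62. A fold here is the authors' own value for a peak over its input, and it ranks peaks within a list. Exceptions are a fold limit applied to every list and a mean over both 48 h control PHF10 lists, given below. When the stable peaks were split into 4 bins of about equal size by untreated H3K4me3 fold, with boundaries at 6.56, 10.7 and 38.0, members made up 75.1%, 87.3%, 93.0% and 63.2% from the lowest to the highest bin. The lowest bin held 1656 of the 2528 peaks with H3K14ac at neither time, and the highest held none of them and most of those with H3K14ac at both times.

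Gene starts and other places were about equally common among members. A start within 2 kb was found for 10921 members (50.4%), and 8168 of these overlapped the start itself. The 10738 members away from a start were narrower, at a median of 409 bp against 726 bp, and had a lower H3K4me3 fold, at 7.58 against 23.8. For comparison, 92.3% of peaks with H3K14ac at both times and 18.5% of those with it at neither time lay at a start. By chromosome, members made up between 71.4% and 82.6% of stable peaks.

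The H3K14ac fold at 48 h had a median of 8.31 over the members and ran from 2.37 to 90.2. It was 12.9 at gene starts and 6.87 away from them, against 36.6 at peaks that had H3K14ac at both times. Members accounted for 62.6% of the 48 h H3K14ac list (22088 of 35270 peaks). A 0 h H3K14ac peak lay within 5 kb of 536 members (2.47%). The weakest members at a gene start lay by Zfp385a, H3c14 and Meikin, with H3K14ac −log10 q of 1.32, 1.34 and 1.38, close to the lowest value in that list. The nearest stable peaks outside the rule lay by Polr1a, Runx3 and Zfp503, at 119, 202 and 211 bp from a 48 h H3K14ac peak.

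The 8 members at gene starts with the highest H3K14ac fold were at Abl2, Prmt1, Atxn2l, Pnn, Tia1, Zhx2, Phf14 and Rpl19. Abl2 encodes a non-receptor tyrosine kinase that acts on the cytoskeleton. The member at Abl2 (chr1:156558440-156559736) had an H3K14ac fold of 90.2 at 48 h, with H3K4me3 folds of 54.0 at 0 h and 84.6 at 48 h. Its PHF10 folds were 8.76 and 3.76 at 0 h, 5.92 at 24 h and 5.37 and 2.86 at 48 h in control cells. In KO cells they were 8.12 before TGFβ1 and 2.85 after 48 h. PHF10 was thus called there in each of the 7 libraries. Prmt1, an arginine methyltransferase gene (chr7:44985600-44986455), had an H3K14ac fold of 83.1 and PHF10 in each of the 7 libraries too. Tia1, the gene of an RNA-binding protein of stress granules, had an H3K14ac fold of 78.0 and lacked PHF10 in the first 0 h control library only. The widest members at a start lay over Brd2, a bromodomain reader of acetylated histones, Mex3b and Anp32a, at 4925, 4666 and 4199 bp.

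PHF10 was called at more members at 48 h than at 0 h in the lists as deposited. It overlapped 30.6% and 47.1% of members in the 2 control libraries at 0 h, 84.6% at 24 h, and 72.4% and 94.7% at 48 h. Over both libraries of a time the mean share came to 38.8% ± 11.7 before TGFβ1 (SD, n = 2) and to 83.5% ± 15.8 after 48 h (SD, n = 2). The means differed by 44.7 percentage points. The 2 times did not overlap, and the exact two-sided permutation p was 0.33, the smallest that 2 against 2 libraries can give. In the KO, PHF10 overlapped 35.7% of members at 0 h and 95.6% at 48 h. The first lies within the range of the 0 h control libraries and the second just above that of the 48 h ones, with 1 KO library per time and no test.

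The lists themselves grew over the same interval, and this difference in share moved with their length. The control PHF10 lists held 11285 and 14731 peaks at 0 h, 28011 at 24 h, and 43549 and 102434 at 48 h, and the KO lists held 11515 and 158815. With each list reduced to its 11285 most significant peaks, PHF10 overlapped 30.6% and 37.7% of members at 0 h, 38.1% at 24 h, and 29.8% and 18.4% at 48 h. The difference was then −10.0 percentage points (exact two-sided permutation p = 0.33), and in the KO the shares were 35.2% at 0 h and 12.2% at 48 h. In those equal lists peaks with H3K14ac at both times also held fewer of the top PHF10 peaks at 48 h, at 86.6% and 33.0% in control and 26.4% in the KO, against 100% and 95.4% at 0 h. Peaks with H3K14ac at neither time were at 3.32% and 4.94% at 0 h, 8.58% at 24 h and 4.79% and 9.22% at 48 h in control, and at 2.49% and 5.30% in the KO. Without equal lengths but at a −log10 q of at least 5 in every list the members' difference in control was 5.12 percentage points, and at a fold of at least 3 it was 1.37 (exact two-sided permutation p = 1 for both). The fold limit acted mainly on the 48 h lists. It left 11285 and 14467 peaks at 0 h, and 21454 and 44955 at 48 h. Whether sequencing depth or the amount of bound PHF10 differed was not tested, since read totals were not used here.

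**Figure D1:**
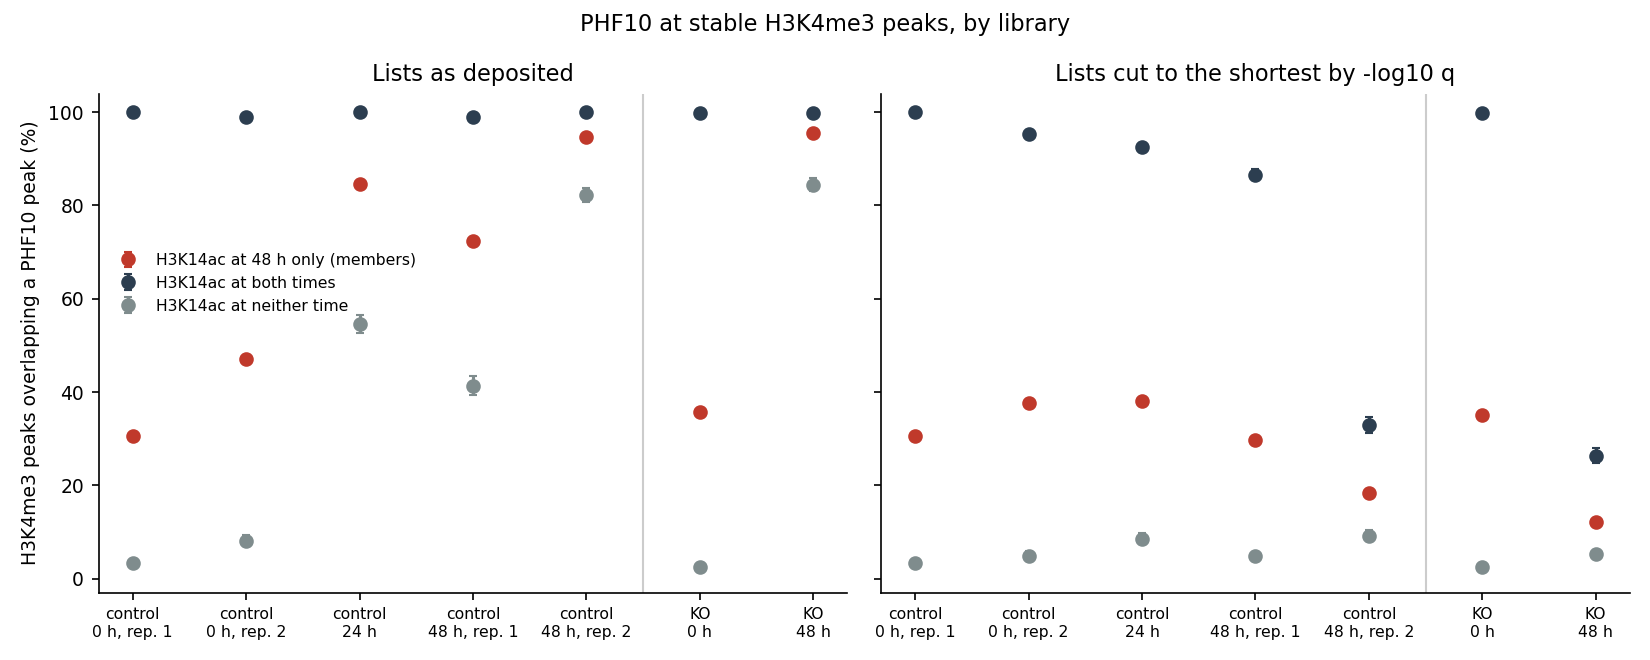
Share of stable H3K4me3 peaks (y axis, percent) overlapping a PHF10 peak in each of the 7 libraries (x axis), for members (red), peaks with H3K14ac at both times (dark) and at neither time (grey), with exact 95% intervals for counting error; left, lists as deposited, right, each list reduced to the length of the shortest. Members go from 30.6% and 47.1% at 0 h to 72.4% and 94.7% at 48 h on the left, and are at 29.8% and 18.4% at 48 h on the right.

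Over all untreated H3K4me3 peaks, PHF10 overlapped 31.2% and 43.1% at 0 h, 77.7% at 24 h, and 67.5% and 91.7% at 48 h, so the members' shares were near this background. Where H3K14ac was called at neither time, PHF10 overlapped 3.32% and 8.19% at 0 h, 54.5% at 24 h, and 41.4% and 82.2% at 48 h, a difference of 56.1 percentage points. Where H3K14ac was called at both times, the share lay between 98.9% and 100% in every library. The 48 h minus 0 h difference at members was 11.3 points smaller than at peaks with H3K14ac at neither time (−11.3, exact two-sided permutation p = 0.67), which is within the spread of the libraries. Leaving out the second 48 h library gave −2.07 and leaving out the first −20.5. Within bins of H3K4me3 fold the contrast was 7.21 points in the lowest (exact permutation p = 0.33, the smallest possible) and −3.88 and −3.50 in the next 2 (exact permutation p = 0.67 for both), so its sign was not the same across bins.

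The starting share of PHF10 depended on where a member lay and on its H3K4me3. At gene starts PHF10 overlapped 45.3% and 66.6% of members at 0 h and 87.0% and 97.9% at 48 h. Away from starts it overlapped 15.6% and 27.2% at 0 h and 57.5% and 91.4% at 48 h. In the lowest H3K4me3 bin the 0 h shares were 4.12% and 13.3%, and in the highest 64.9% and 91.9%. The 48 h minus 0 h difference was 64.9, 50.8, 39.2 and 20.5 percentage points from the lowest bin to the highest. The highest bin reached 98.6% and 99.3% at 48 h and so had little room to rise further, and the 48 h lists were longer. These differences therefore do not rank the bins by gain of PHF10.

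At single members, PHF10 was called in both 48 h and neither 0 h control library for 5877 (27.1%, 95% exact interval 26.5 to 27.7), against 25.6% of all untreated H3K4me3 peaks and 34.1% of stable peaks with H3K14ac at neither time. The members' share is near that background. The count also depends on the longer 48 h lists. It was 359 with PHF10 lists of equal length and 562 at a −log10 q of at least 5 in every list. The opposite pattern, PHF10 in both 0 h and neither 48 h library, was found at 18 members (0.0831%), with 0.0979% over all untreated H3K4me3 peaks. PHF10 was in all 4 control libraries at 5234 members and in none of them at 616. These counts have no background share beside them and are not read as a trait of members. Of the 5877 with PHF10 at 48 h but not 0 h, 76.9% also had PHF10 at 24 h and 98.1% had it in the KO at 48 h, while 4.71% had it in the KO at 0 h. Over all members these shares were 84.6%, 95.6% and 35.7%. The 98.1% is thus near the share of all members and the 76.9% is below it. Of the 5668 with PHF10 in both 0 h control libraries, 93.3% had it in the KO at 0 h.

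Members with PHF10 called in both 0 h control libraries and members with it called at 48 h but not 0 h differed in other readouts. The second group rests on 48 h lists longer than the 0 h ones. Lack of a 0 h call does not show that PHF10 was absent. Of those with PHF10 in both 0 h libraries, 79.6% lay at a gene start, 94.7% had H3K27ac at 0 h and 86.7% had it at 48 h. Of those with PHF10 at 48 h but not 0 h, 39.5% lay at a start, 47.3% had H3K27ac at 0 h and 16.0% had it at 48 h. BRG1, the remodeller's ATPase, overlapped 42.2% of members with PHF10 in both 0 h libraries and 9.20% of those with PHF10 in neither. Strong H3K4me3 goes with each of these shares, and its part in them was not tested.

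The members at gene starts with PHF10 at 48 h but not 0 h and the highest mean 48 h fold included those by Gm14325, Gm14410, Zeb2, H2-T22, Cxcl5, Zfp53 and Nf2. Gm14325, Gm14410, Zfp53 and H2-T22 belong to families with near-identical copies, so reads at them may be shared and their values are uncertain. Zeb2 encodes a zinc finger repressor of Cdh1 that drives the epithelial to mesenchymal transition. The member at Zeb2 (chr2:45108658-45108902) lay 1376 bp from the start. PHF10 was not called there at 0 h in either control library or in the KO, and its fold was 4.36 at 24 h, 6.89 and 3.44 in the 48 h control libraries, and 2.97 in the 48 h KO library. Its H3K4me3 fold was 4.34 at 0 h and 57.2 at 48 h, its H3K14ac fold at 48 h was 11.8, and neither H3K27ac nor H3K18ac was called. Each fold is the highest of the peaks that overlap the member, which is 244 bp wide, and such a peak can reach beyond it. The H3K4me3 values come from different lists and do not measure a change at this site. Nf2, the merlin gene and a Hippo pathway regulator, had 48 h PHF10 folds of 3.63 and 5.93 in control cells and of 4.53 in KO cells. At Cxcl5, a chemokine gene, these were 5.14, 4.55 and 3.77.

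In the lists as deposited, genotypes at 48 h parted at few members. PHF10 was called in both control libraries and not in the KO at 163 members (0.753%), against 0.891% of all untreated H3K4me3 peaks. It was called in the KO and in neither control library at 457 (2.11%), against 3.24%. Both shares are at or below the background. The KO list covered 95.6% of members and the second 48 h control list 94.7%, so few members could differ by these counts. With each list reduced to its 11285 most significant peaks, the 48 h shares were 12.2% in the KO and 29.8% and 18.4% in control. Whether PBRM1 loss changes PHF10 at members was not tested. The strongest control-only members at gene starts lay by Gm14410, Cfap20dc and Arid5b, with mean PHF10 folds of 5.26, 4.90 and 4.62. The strongest KO-only ones lay by Ooep, Gm7102 and Dlat, with folds of 5.10, 5.03 and 5.02.

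ATF3 was called at almost no member at 0 h and at nearly all of them at 48 h in control cells. It was called at 1 of 21659 members at 0 h, at 288 (1.33%) at 24 h and at 96.7% at 48 h. In the KO it was called at 2 members at 0 h, at 5 at 24 h and at 76.5% at 48 h. Over all untreated H3K4me3 peaks the 48 h shares were 93.8% in control and 72.2% in the KO, so the members lie near this background. The list lengths followed the same order, with 20, 2004 and 45716 peaks in control and 25, 69 and 144513 in the KO. Each group had 1 library, so these differences have no replicate check.

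Fewer members had ATF3 in the KO at 48 h than in control although the KO list was about 3 times longer. With the KO list reduced to the 45716 most significant peaks, 36.0% of members had ATF3 in the KO against 96.7% in control. ATF3 peaks of control cells without a KO counterpart at 48 h lay at 4700 members (21.7%, 95% exact interval 21.2 to 22.3), against 24% of all untreated H3K4me3 peaks, 38.5% of stable peaks with H3K14ac at neither time and 1.69% of those with it at both. The reverse held at 317 members (1.46%), against 2.37% of all untreated H3K4me3 peaks. The gap was therefore not larger at members than at untreated H3K4me3 peaks as a whole. In the lists as deposited, ATF3 overlapped 84.6% and 51.7% of stable peaks with H3K14ac at neither time in control and KO, and 100% and 98.3% of those with it at both.

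**Figure D2:**
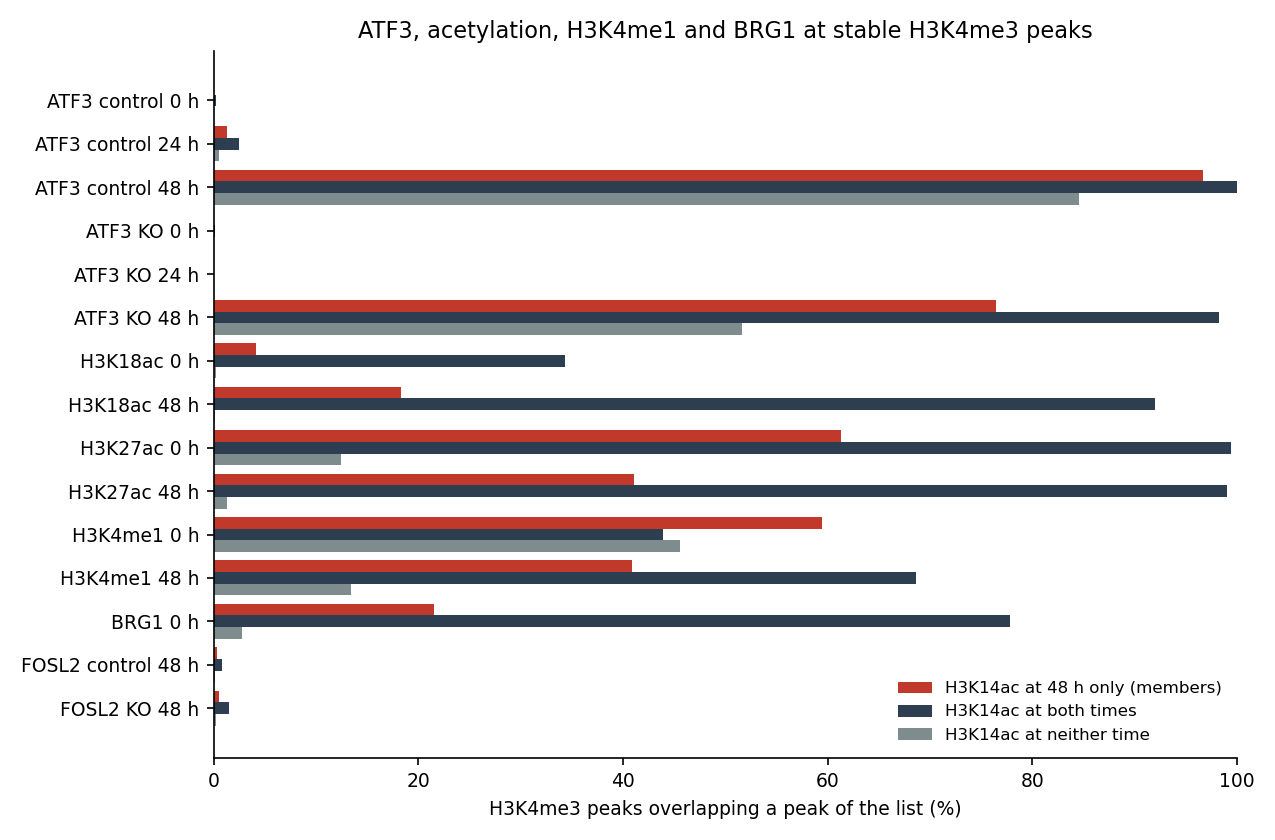
Share of stable H3K4me3 peaks (x axis, percent) overlapping a peak of each list (y axis), for members (red), peaks with H3K14ac at both times (dark) and at neither time (grey), with 1 library per bar and no error bars. ATF3 at 48 h covers 96.7% of members in control and 76.5% in the KO, and H3K18ac covers 4.15% at 0 h and 18.3% at 48 h.

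The KO gap in ATF3 was wider at weak members and away from starts. ATF3 in the KO covered 67.2%, 70.3%, 79.6% and 91.5% of members from the lowest to the highest H3K4me3 bin, whereas in control it covered at least 93.0% in each. At gene starts the shares were 97.1% in control and 85.4% in the KO, and away from starts 96.3% and 67.4%. Only 31.0% of the 4700 members with ATF3 in control alone lay at a start, against 56.3% of the 16247 with ATF3 in both genotypes. PHF10 was called in the KO at 85.1% of those 4700 members. ATF3 was also called at 75.8% of the 616 members with PHF10 in none of the 4 control libraries, and at 23.1% of them in the KO.

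ATF3 summits lay close to the H3K4me3 summit in control cells. At members at a start the median distance between the control ATF3 summit and the untreated H3K4me3 summit was 35.0 bp, and 77.9% lay within 100 bp. Away from starts it was 28.0 bp, with 83.7% within 100 bp. In the KO these distances were 105 and 95.0 bp, and 48.4% and 51.6% lay within 100 bp. For H3K14ac at 48 h, which the rule used, they were 26.0 and 25.0 bp. The ATF3 pattern was not particular to members. At stable peaks with H3K14ac at neither time the median ATF3 distance was 25 bp in control and 96 bp in the KO. There, 88.3% and 51.4% lay within 100 bp. At peaks with H3K14ac at both times the medians were 66 and 143 bp. At genes with a member, the H3K4me3, H3K14ac, control ATF3 and KO ATF3 summits had medians of 171, 178, 177 and 196 bp downstream of the annotated start. The PHF10 and BRG1 lists hold no summits, so no such distance can be given for them.

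**Figure D3:**
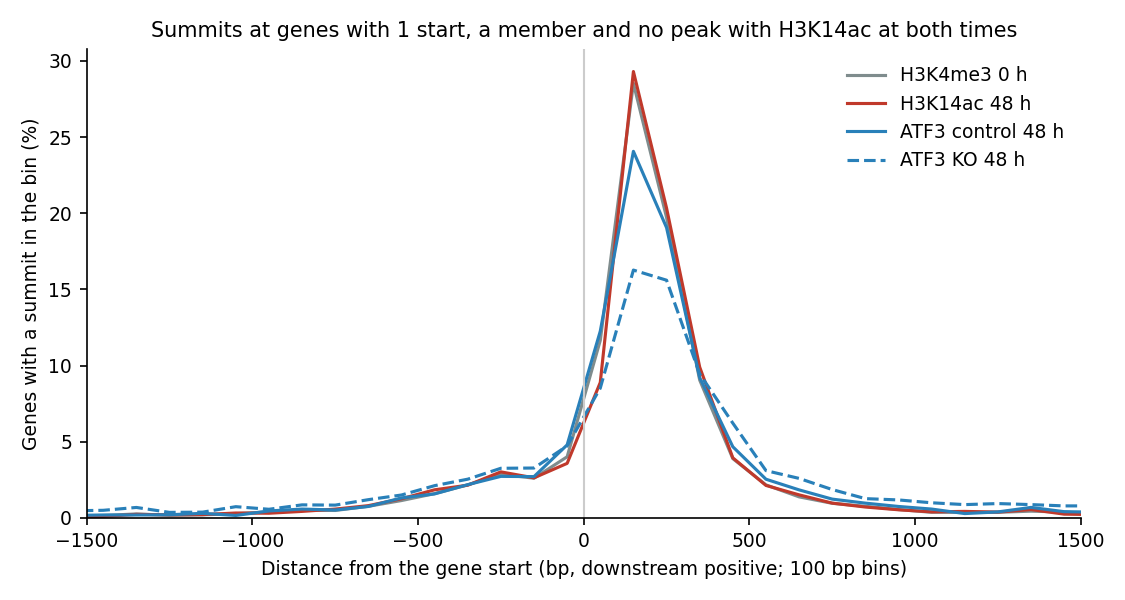
Percentage of genes (y axis) with a peak summit in each 100 bp bin of distance from the annotated start (x axis, bp, downstream positive), for genes with 1 annotated start, a member and no peak with H3K14ac at both times. The H3K4me3, H3K14ac and control ATF3 curves peak together just downstream of the start, with medians of 171, 178 and 177 bp, and the KO ATF3 curve is lower and broader, with a median of 196 bp.

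The highest ATF3 folds at members in control cells were at Cnnm4, Anapc1, Cdkn1b, Ppm1e and Acot1. Cnnm4, a magnesium transporter gene (chr1:36471110-36472434), had a 48 h ATF3 fold of 25.0 in control cells and of 9.57 in KO cells, and its promoter above holds TGACGTCA at position −24 from the start. Anapc1, which encodes the scaffold subunit of the anaphase-promoting complex, had 21.8 in control and 2.99 in the KO. Cdkn1b, which encodes a cyclin-dependent kinase inhibitor, had 21.5 and 5.74. At all 5 genes the KO also had an ATF3 peak, and PHF10 was called in each of the 7 libraries. Since the folds come from lists of different length, they rank peaks within a list and do not measure a change between genotypes.

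H3K18ac was called at few members before treatment and at more afterwards. It overlapped 4.15% of members at 0 h and 18.3% at 48 h, in lists of 13226 and 20415 peaks with 1 library each. The 0 h file, like that of H3K14ac, has a header and rounded values. H3K18ac at 48 h only was found at 3292 members (15.2%, 95% exact interval 14.7 to 15.7), against 16% of all untreated H3K4me3 peaks, so the members' share is near the background. At peaks with H3K14ac at both times, H3K18ac overlapped 34.3% at 0 h and 92.1% at 48 h. Where H3K14ac was called at neither time, it overlapped 0.237% and 0.119%. Of the 899 members with H3K18ac at 0 h, 74.9% also had it at 48 h.

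Within the members, H3K18ac at 48 h was most common at strong H3K4me3 and at gene starts. From the lowest to the highest H3K4me3 bin it overlapped 0.80%, 1.63%, 12.7% and 70.4% of members at 48 h. At starts the shares were 6.90% at 0 h and 32.3% at 48 h, and away from them 1.35% and 4.12%. Of members with H3K18ac at 48 h, 88.9% lay at a start, against 41.8% of those without it. H3K18ac at 48 h was called at 55.5% of members with PHF10 in both 0 h libraries, at 2.40% of those with PHF10 at 48 h but not 0 h and at 1.52% of those with PHF10 in neither 0 h library. Of the 3965 members with H3K18ac at 48 h, 3144 thus had PHF10 in both untreated libraries. PHF10, H3K4me3 and nearness to a start go together, and their separate parts were not tested.

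**Figure D4:**
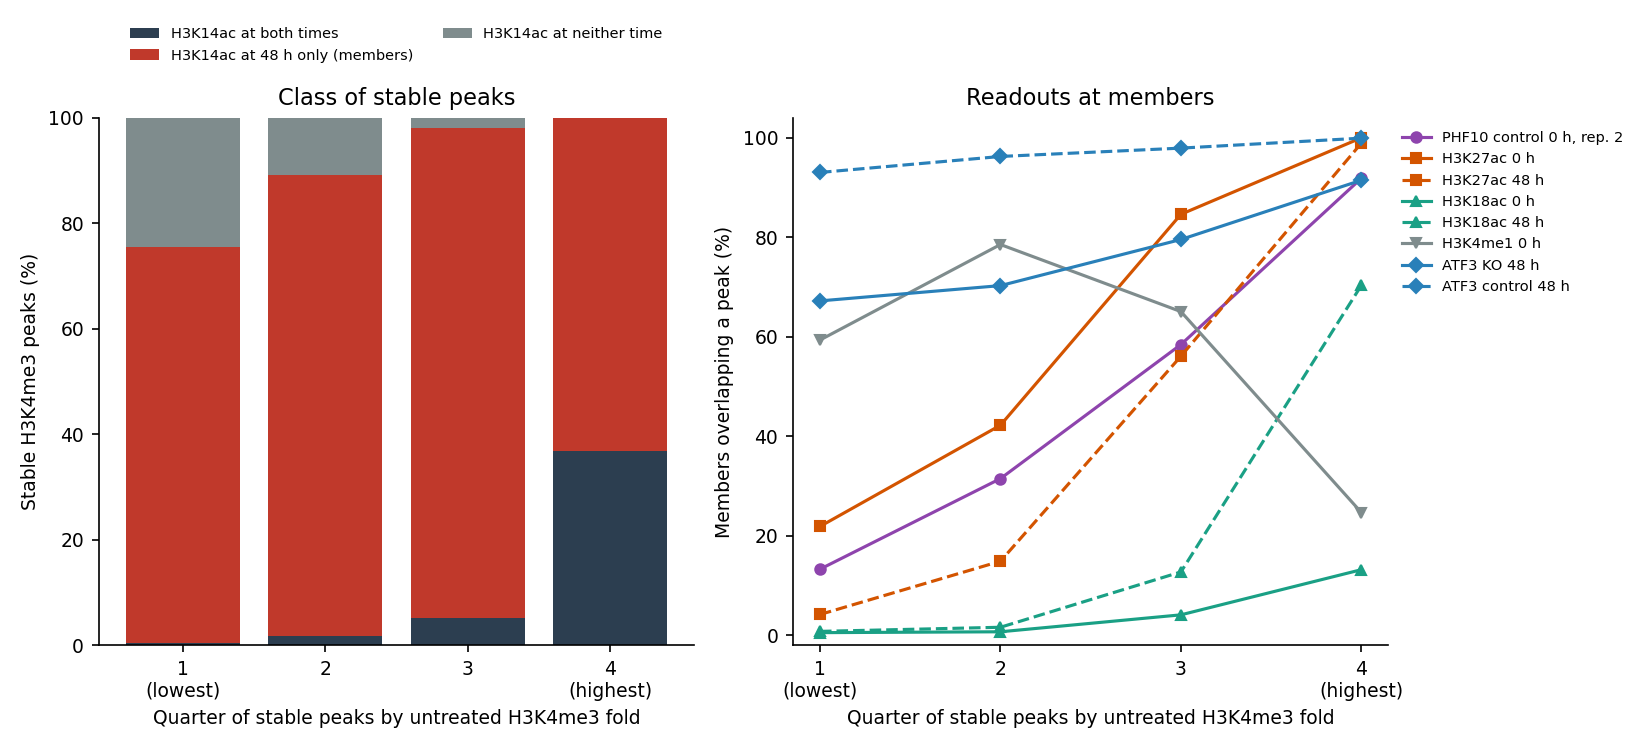
Stable H3K4me3 peaks in 4 bins of about equal size of untreated H3K4me3 fold (x axis, lowest to highest): left, the share of each H3K14ac class (y axis, percent), right, the share of members overlapping a peak of each list (y axis, percent), with 1 library per point. H3K18ac at 48 h goes from 0.80% to 70.4% of members and PHF10 of the second 0 h library from 13.3% to 91.9%, while ATF3 in control stays at 93.0% or more.

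Zbtb18, Ext2, Dusp16, Parp8 and Abl2 had the highest 48 h H3K18ac fold among members at gene starts without H3K18ac at 0 h. Zbtb18 encodes a zinc finger repressor, and its member (chr1:177441400-177442027) had an H3K18ac fold of 224 at 48 h. The value was 88.3 at Ext2, which makes heparan sulfate chains, 87.8 at Dusp16, a phosphatase of stress-activated MAP kinases, 86.7 at Parp8 and 84.6 at Abl2. All 5 had PHF10 in each of the 7 libraries and H3K27ac at both times. PHF10 at 48 h but not 0 h, ATF3 at 48 h in control and H3K18ac at 48 h only came together at 88 members (0.406%), against 0.294% of all untreated H3K4me3 peaks. Of these, those with the highest H3K14ac fold were at Zfp119a, Rpl27a, Agpat1, Srp72 and Mrto4. At Rpl27a, a ribosomal protein gene whose promoter is shown above, PHF10 had a fold of 4.26 in the KO at 0 h although it was called in neither 0 h control library.

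H3K27ac and H3K4me1 were called at fewer members at 48 h. H3K27ac, the acetylation written by p300 and CBP, overlapped 61.3% at 0 h and 41.1% at 48 h, with list lengths of 20507 and 15962. It was present at 0 h only at 4533 members (20.9%), against 16.5% of all untreated H3K4me3 peaks, and at 48 h only at 157 (0.725%). By H3K4me3 bin it overlapped 21.9%, 42.2%, 84.6% and 100% of members at 0 h and 4.20%, 14.9%, 56.1% and 98.9% at 48 h, so the strongest members had it at both times. Stable peaks with H3K14ac at neither time overlapped 317 H3K27ac peaks at 0 h and 34 at 48 h, so a fall was not particular to members. Those with H3K14ac at both times overlapped 3044 and 3045. Of the 8231 members without H3K27ac at either time, 1 had H3K18ac at 48 h. Of the 8895 with H3K27ac at 48 h, 44.3% had H3K18ac at that time.

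H3K4me1 overlapped 59.4% of members at 0 h and 40.9% at 48 h. At peaks with H3K14ac at both times the shares ran the other way, 43.9% and 68.7%. Its 2 lists held 20179 and 12863 peaks, and each time had 1 library. The 2528 stable peaks with H3K14ac at neither time overlapped 1155 H3K4me1 peaks at 0 h and 341 at 48 h. The fall was therefore not particular to members. FOSL2, an AP-1 protein, at 48 h overlapped 0.319% of members in control cells and 0.559% in KO cells. FOSB overlapped at most 0.0785% of members in any library. The FOSL2 and FOSB shares have no background share beside them and are not read as a trait of members.

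Most genes with stable H3K4me3 had a member. Of 13586 protein-coding genes with a stable H3K4me3 peak within 2 kb of the start, 10710 (78.8%) had a member, and 10368 of these had no peak with H3K14ac at both times. A single member was found at 9341 genes, 2 at 1166 and 3 or more at 203. A member with PHF10 at 48 h but not 0 h lay at 2488 genes (23.2%), one with H3K18ac at 48 h only at 3302 (30.8%) and one with ATF3 in control and not the KO at 48 h at 1576 (14.7%).

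Gene lists are read against those percentages, as counts without a test. Genes of energy supply, protein synthesis and protein breakdown had shares above 78.8%, a difference that was not tested. A member lay at 34 of 35 respiratory chain genes with stable H3K4me3, 37 of 42 cytosolic ribosomal protein genes and 30 of 33 proteasome and ubiquitin genes. PHF10 in both 0 h control libraries was found at 6 of the 34, 10 of the 37 and 6 of the 30, against 44.9% of all genes with a member. Rpl19, Rpl32 and Rplp0, which encode ribosomal proteins, had H3K14ac folds of 76.3, 64.8 and 62.5, and PHF10 in each of the 7 libraries. Psmd3, Psmc1 and Psma4, which encode proteasome subunits, had 52.4, 46.2 and 40.7. Atp5c1, an ATP synthase subunit gene, had 44.9.

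Among chromatin genes the shares with a member were below 78.8%, a difference that was not tested. A member lay at 14 of 28 SWI/SNF subunit genes with stable H3K4me3 and at 17 of 32 genes of histone acetyltransferases and deacetylases, while a peak with H3K14ac at both times lay at 15 and 17 of them. The member at Smarca4, which encodes BRG1, had an H3K14ac fold of 42.4 and PHF10 folds of 8.00 and 4.91 at 0 h, 4.62 at 24 h and 4.37 and 2.36 at 48 h in control cells, and of 5.68 and 3.03 in KO cells. At Dpf2, a subunit gene of the related BAF complex, PHF10 was missing from the first 0 h control library and from the KO at 0 h. Kat2a, the gene of GCN5, had an H3K14ac fold of 53.4 and PHF10 in each library, and Kat7, the gene of HBO1, had 45.5 with PHF10 missing from the first 0 h library and from the KO at 0 h. PHF10 in both 0 h libraries was found at 10 of the 14 SWI/SNF genes and 6 of the 17 acetylation genes with a member. Splicing genes had a member at 19 of 32.

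Both sides of the epithelial to mesenchymal transition had members. A member lay at 28 of 46 TGFβ response and mesenchymal genes and at 28 of 34 epithelial genes with stable H3K4me3. PHF10 at 48 h but not 0 h was found at 9 of the 28 in each list, and H3K18ac at 48 h only at 11 and 8. The member at Cdh1, the E-cadherin gene (chr8:106602879-106604266), had H3K4me3 folds of 82.4 at 0 h and 74.5 at 48 h and an H3K14ac fold of 44.2. PHF10 was missing there in the first 0 h control library and had folds of 4.01 in the second, 4.68 at 24 h and 3.99 and 3.27 at 48 h, with 4.34 and 3.49 in the KO. H3K18ac was not called at Cdh1 at 0 h and had a fold of 14.8 at 48 h. At Itga5, the gene of a fibronectin receptor subunit, H3K14ac had a fold of 62.3, and at Mmp14, a matrix metalloproteinase gene, 42.5. At Tgfb2, which encodes a TGFβ ligand, it was 34.4, and at the desmoplakin gene Dsp 42.4. All 4 of these genes had PHF10 in each of the 7 libraries.

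Among transcription factor genes, a member lay at 16 of 21 AP-1 and ATF genes and at 42 of 47 developmental factor genes with stable H3K4me3. PHF10 in both 0 h libraries was found at 8 of the 16 and at 29 of the 42. Maff, a small MAF gene, had an H3K14ac fold of 52.9, Atf4, a stress response factor gene, 50.3, and Sox9, a factor of progenitor cells, 37.3. YAP and TEAD pathway genes had a member at 12 of 18, and H3K18ac at 48 h only at 8 of these 12. Amotl2 and Wwtr1, the latter encoding the coactivator TAZ, had H3K14ac folds of 48.9 and 35.8. Cell cycle and growth arrest genes had a member at 30 of 34. Mdm2, which encodes the ligase that degrades p53, had an H3K14ac fold of 55.5, and Cdkn1a, a p53 target and kinase inhibitor gene, 37.3.

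**Figure D5:**
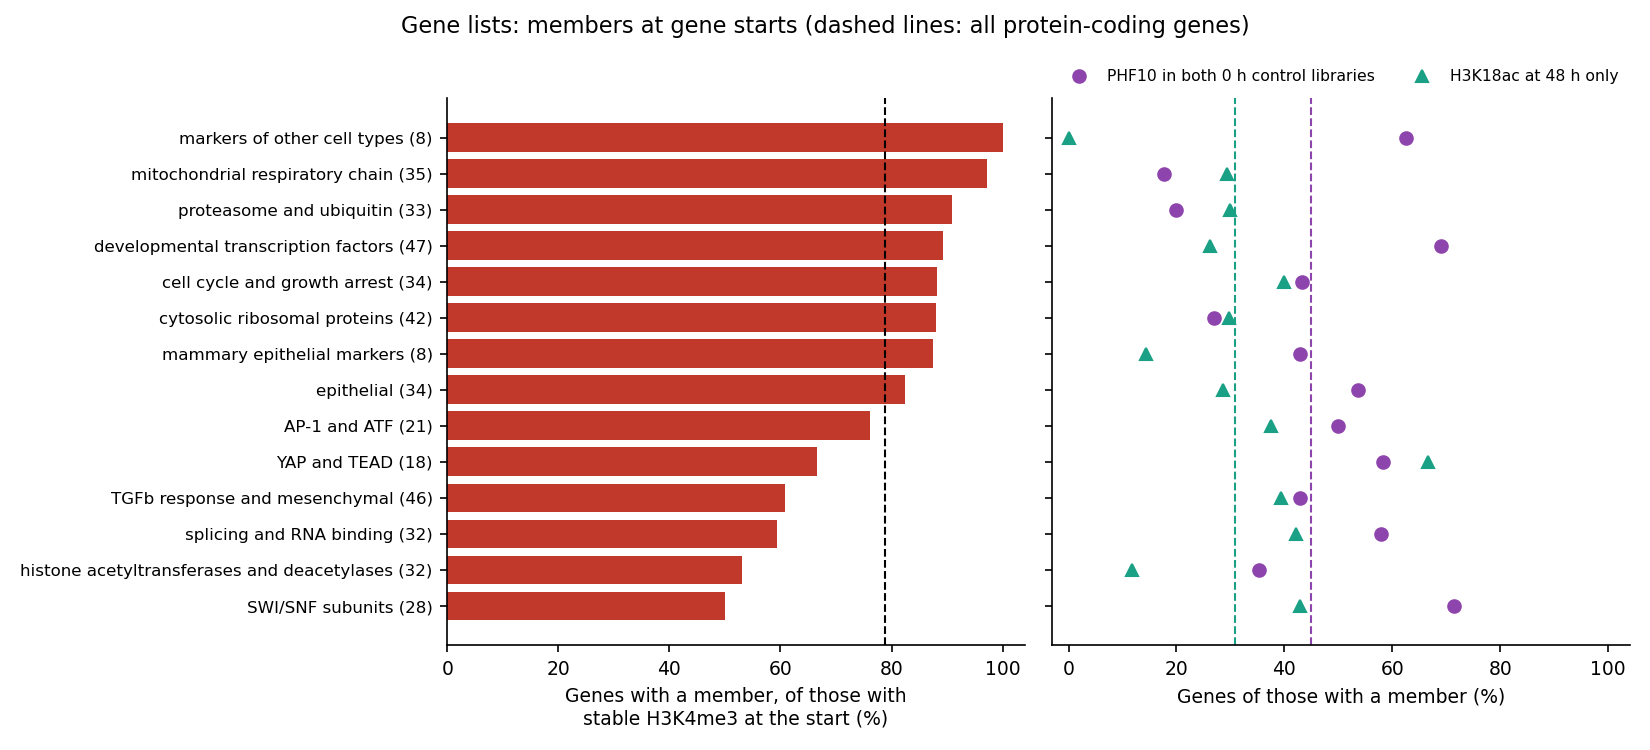
Gene lists (y axis, with the number of genes having stable H3K4me3 at the start): left, the percentage of those genes with a member (x axis), right, of the genes with a member, the percentage with PHF10 in both 0 h control libraries (circles) or H3K18ac at 48 h only (triangles). Dashed lines give the same for all protein-coding genes, 78.8% on the left and 44.9% and 30.8% on the right.

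Markers of the labelled cell type were present. All 8 mammary epithelial markers checked had an untreated H3K4me3 peak at the start, and 7 had a member. Of 28 markers of other cell types, 9 had an untreated H3K4me3 peak and 8 had a member. These included Pdgfra, Cdh5, Tubb3 and Kdr, genes of fibroblast, endothelial and neuronal cells, with H3K14ac folds of 8.28, 8.16, 7.55 and 7.26. None of the 8 had H3K18ac at 48 h only, and their part in the results above was not tested.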

How the data were processed

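Peak lists of 32 ChIP-seq libraries were used as deposited, and 15 further samples without a list (inputs) were not analysed here. For PHF10, BRG1 and ATF3 a first crosslink with disuccinimidyl glutarate preceded formaldehyde, per the labels' protocols. The submitters' processing notes list MACS3 3.0.0a7, Bowtie2 2.3.3, deepTools 3.5.1 and fastp 0.19.5, with mm10 as the genome and no settings. Lists were called per library. The deposited pileup signal was not compared. The deposited −log10 q-values ranked and filtered peaks within a list, and the deposited −log10 p-values were not used. The PHF10 and BRG1 lists reach a lower −log10 q (1.00) than the others (1.30). The deposited fold enrichment, a ratio to the input made by the authors, ranked peaks within a list. It was used across lists in the alternative with a fold of at least 3 in every list. The mean over both 48 h control lists, used to rank PHF10 members, also crossed lists. Read depth was not used here.

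Only assembled chromosomes were kept, and an overlap of 1 bp counted as shared. The base from which the deposited positions count is not stated. Shares carry exact Clopper-Pearson intervals at 95%, which cover counting error only, since neighbouring regions are not independent. PHF10 shares at 48 and 0 h were compared with an exact two-sided permutation test over the 4 control libraries, and no other comparison was tested, for want of replicates. A gene start came from the RefSeq promoter table (17492 of 21887 protein-coding genes), and otherwise either gene end stood for it. A region was named by the nearest protein-coding start within 2 kb. Regions were named by rank of H3K14ac, PHF10, ATF3 or H3K18ac fold, by width, by closeness to the rule's limits, and within each gene list by H3K14ac fold (up to 4 genes). The text gives a part of these, and 1 gene is not reported here. The members and gene lists were chosen with earlier results of these data known. Counting was tested on simulated peaks. Python 3.11.15, NumPy 2.4.6, SciPy 1.17.1 and matplotlib 3.10.9 were used. Alternatives were stricter lists, equal list lengths, a 50% overlap, other distances to a start, each PHF10 library left out and the replicate number as a block.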

Additional observations from a re-analysis of the deposited data

How the results depend on the processing

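Under the alternatives 52 recomputed values were classed as the same, 22 moved and 3 reversed. Counts were the same within 1.5 times, and untested differences within the counting error of the reported value. Tested differences were the same if direction and side of the threshold held. No test passed its threshold under any alternative, since 2 against 2 libraries cannot. For tested differences the class therefore reflects direction only, and a fall from 44.7 to 1.37 points counts as the same. The fold limit behind the 1.37 shortened the 48 h PHF10 lists far more than the 0 h ones. The control PHF10 difference of 44.7 points became −10.0 with lists of equal length, 5.12 at a −log10 q of at least 5, 1.37 at a fold of at least 3 and 13.1 with equal H3K14ac lists. The members' contrast with peaks with H3K14ac at neither time (−11.3) was −0.075, −19.2 and −35.0 under the last 3, −12.9 with equal PHF10 lists, and −20.5 to −2.07 without 1 library. For KO cells the difference became −22.9 with equal lists and −1.15 at a −log10 q of at least 5; at a fold of at least 3 the KO difference was 30.8, and 11.1 with equal H3K14ac lists. With equal H3K14ac lists the members numbered 1533, at 1643 genes. Members with PHF10 at 48 h but not 0 h numbered 562 at the stricter q, 1179 at the fold filter, 48 with equal H3K14ac lists and 359 with equal PHF10 lists. Leaving out 1 PHF10 library gave 6140 to 9639 of them, with 9480 without the second 0 h library and 9639 without the first 48 h library, and a share difference of 33.6 to 55.9 points.

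The ATF3 control minus KO difference of 20.2 points was 59.5 at the stricter q, 40.1 at the fold filter, 22.8 at a 50% overlap, 3.59 with equal H3K14ac lists and 60.7 with equal ATF3 lists. It was 11.7 at gene starts and 28.9 away from them, a split chosen after seeing the data. The H3K18ac difference of 14.2 points was 16.9 at the stricter q, 63.7 with equal H3K14ac lists, 13.3 with equal H3K18ac lists, 25.4 at starts and 2.77 away. Beyond the fewer members or peaks in these settings, the cause was not tested.

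Same-numbered deviations of the PHF10 libraries correlated at −0.12 over 5234 members. With 2 libraries per time this cannot show whether libraries of the same replicate number belong together, since members are not replicates. With the replicate number as a block the PHF10 difference stayed 44.7 points (exact sign-flip permutation p = 0.5, the smallest for 2 pairs), and the members' difference from peaks with H3K14ac at neither time stayed −11.3 (exact sign-flip permutation p = 1). Crossing the pairing, chosen after seeing the data, gave 44.7 (exact sign-flip permutation p = 0.5).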
